A study of Mus musculus with 5 samples.

Results

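Tenocytes, the fibroblasts that build tendon, were examined among single nuclei of mouse hindlimb muscle. A nucleus was taken as a tenocyte when it held at least 1 UMI (a counted RNA molecule) of Tnmd, at least 4 UMIs of Tnmd, Mkx, Thbs4, Fmod and Kera together, and less than 1.5% of its UMIs from the muscle genes Ttn, Neb, Trdn and Ryr1 (4% in the adult library). The rule was met by 771 of the 21154 nuclei that passed quality control (400 to 25000 UMIs, under 10% mitochondrial UMIs and under 70000 peak counts). Of these, 80 came from Cacna1s-/- hindlimbs at E18.5, and the WT libraries gave 61 (E14.5), 388 (E18.5), 240 (P5) and 2 (adult).

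The study followed muscle across development and asked what the loss of excitation-contraction coupling changes at the end of fetal life. Each of the 5 groups was 1 library of pooled hindlimbs, in which RNA and open chromatin (ATAC) were read from the same nuclei. The groups were Cacna1s-/- C57bl6n fetuses at E18.5 (26 hindlimbs) and WT C57bl6n animals at E14.5 (56 hindlimbs), E18.5 (14), P5 (8) and adult (4). The Cacna1s-/- fetuses lacked the coding region of Cacna1s, which encodes the pore subunit of the calcium channel Cav1.1, in every cell of the body and were paralysed. Skin and bone were removed, and nuclei stained for PCM1, which marks the nuclei of muscle fibres, were sorted apart from unstained nuclei and mixed back with them in equal volumes, so the share of non-muscle nuclei in a library was set partly by this mix. Because each group was 1 library, genotype or age and library cannot be told apart, no test was possible between groups, and all 95% intervals below cover counting error only.

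The libraries held 21394846 to 49913899 UMIs. In nuclei at or above the muscle limit, Cacna1s had 8 UMIs (0.731 CPM, where CPM is the count of a gene scaled to a common total of UMIs in the nuclei summed) in the Cacna1s-/- library, against 2058 to 6419 UMIs (189 to 346 CPM) in the WT libraries. The tenocyte nuclei held 0 UMIs of Cacna1s in the Cacna1s-/- library and 0 to 18 in the WT libraries. Between any pair of libraries 17 to 47 cell barcodes were shared, at most 1 of them a tenocyte barcode.

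Tendon is a rope of collagen I fibrils, and tenocytes lay it down. The transcription factor Scx marks tendon cells from the embryo on, Mkx is needed for collagen production in tendon, and Tnmd is a membrane protein of maturing tenocytes. Fmod and Kera are small leucine-rich proteoglycans that bind collagen fibrils, and Thbs4 is a matrix glycoprotein found at the ends of muscle fibres and in tendon. Fetal tendon is known to need muscle force for its maintenance, and FGF and TGF-beta signals are known inducers of Scx in the limb.

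The chromatin readout was not used to choose the nuclei. Tenocyte nuclei held 175699 to 3999435 ATAC counts in 4 libraries and 8328 in the adult, and all 5 libraries entered the test. Counts in peaks within 1000 bases of each start site were summed per library over tenocyte nuclei and over mesenchymal nuclei of the same library. The mesenchymal set held 5753 nuclei below the muscle limit with no Tnmd UMI, at most 1 UMI of the 5 tenocyte genes and at least 4 UMIs of the fibroblast genes Pdgfra, Col3a1, Col1a2, Lum and Dpt. Only start sites with a called peak in all 5 libraries were tested, so those open in some libraries alone were left out. Of 14943 start sites tested, 16 (0.107%) were more accessible and 47 (0.315%) less accessible in tenocyte nuclei. The test was edgeR's quasi-likelihood test with the library as a block and a Benjamini-Hochberg adjusted p under 0.05.

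The start site of Scx was among the 16, although Scx was not part of the rule. It had 63.1 CPM in tenocyte and 33.7 CPM in mesenchymal nuclei of the Cacna1s-/- library, against 58.8 and 17.8 CPM in the WT library of the same age. At E14.5 the values were 22.8 and 22.0 CPM, and at P5 they were 82.1 and 20.8 CPM. The tenocyte value was thus well above the mesenchymal one at E18.5 (3.30-fold, interval 2.49 to 4.35) and P5 (3.95-fold, 2.83 to 5.51), while at E14.5 it rested on 4 counts (1.04-fold, 0.123 to 3.89) and in Cacna1s-/- fetuses its interval reached below 1 (1.87-fold, 0.928 to 3.50). Over the libraries together the log2 difference for Scx was 1.38 (SE 0.26, adjusted p = 0.000437 in edgeR). The call was lost without the WT E18.5 library and without the WT P5 library (adjusted p = 1.00 for each) and in DESeq2 (adjusted p = 0.150).

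Zfp185, which encodes an actin-associated LIM protein, had the smallest adjusted p of the named start sites. Its start site had 68.3 CPM in tenocyte and 8.01 CPM in mesenchymal nuclei of Cacna1s-/- fetuses. In WT libraries the pairs were 68.3 and 17.6 CPM at E14.5, 53.5 and 12.4 CPM at E18.5, and 38.4 and 11.8 CPM at P5. Tenocyte nuclei were 3.25-fold to 8.53-fold higher, with an interval above 1 in each of these 4 libraries, and the log2 difference of Zfp185 was 2.04 (SE 0.30, adjusted p = 8.16e-08 in edgeR). Without the WT E18.5 library its adjusted p was 0.169.

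The other calls with higher accessibility included Atp6v1e2, a proton pump subunit (log2 1.69, SE 0.27, adjusted p = 1.93e-06), Ecrg4, a secreted peptide precursor (1.15, adjusted p = 0.0298), and the transcription factors Runx1 (0.86, adjusted p = 0.0103) and Six2 (0.95, adjusted p = 0.0415), all in edgeR. Cyp2j13, a cytochrome P450, had 2.12 (adjusted p = 0.0108), and Gm36543, Gm50413, Gm47708, Gm29591 and AC103362.1, the other 5 of the 8 largest, are gene models without a described function (1.57 to 2.26). Lower accessibility was called for Sfrp4, a secreted Wnt antagonist (log2 -1.91, SE 0.41, adjusted p = 0.00392), C1qtnf7, a secreted C1q-related protein (-1.82, SE 0.33, adjusted p = 0.000107), Osr1, a transcription factor of muscle connective tissue (-1.33, adjusted p = 0.0325), and Nrxn3, a cell adhesion protein (-1.01, adjusted p = 0.0156). Sphkap (-2.26), Pdcd1lg2 (-1.99), Dpep1 (-1.84), Xaf1 (-1.78), 3100003L05Rik (-1.77) and Smim1 (-1.74) completed the 8 lowest. C1qtnf7 had 10.5 CPM in tenocyte and 47.1 CPM in mesenchymal nuclei of Cacna1s-/- fetuses, and the tenocyte values lay below the mesenchymal ones in the WT libraries too (0 and 19.6 CPM at E14.5, 14.8 and 38.7 CPM at E18.5, 8.65 and 32.5 CPM at P5).

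The collagen I genes were not called. The start site of Col1a1 differed by -0.03 and that of Col1a2 by 0.39 on the log2 scale. Start sites of Comp (0.33), Tnc (0.28), Chodl (0.57), Khdrbs2 (1.10, adjusted p = 0.101 in edgeR) and the rule genes Thbs4 (1.34, adjusted p = 0.123) and Mkx (0.94, adjusted p = 0.389) were not called either. Without the WT E18.5 library no start site was called (68 and 293 higher and lower at an unadjusted p under 0.05), and without the WT P5 library 2 and 0 were.

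**Figure D1:**
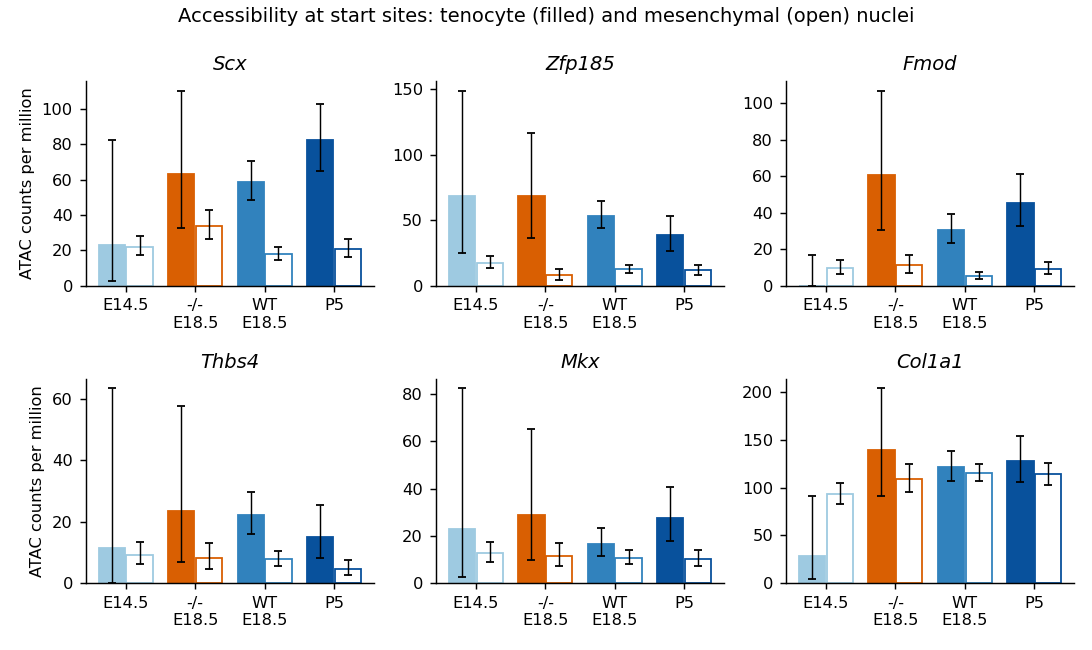
ATAC CPM in peaks within 1000 bases of the start sites of Scx, Zfp185, Fmod, Thbs4, Mkx and Col1a1, for tenocyte nuclei (filled) and mesenchymal nuclei (open) of 4 libraries, with 95% counting intervals. Zfp185 is higher in tenocyte nuclei of each library, Scx is about level at E14.5 (22.8 and 22.0 CPM), and Col1a1 does not separate the sets.

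The 250 bases before the start site are given for 3 of the rule genes and for Zfp185, because their peaks bear on the identity of these nuclei. Capitals mark the letters CANNTG (an E-box, the kind of site bound by Scx and other basic helix-loop-helix factors, on either strand). Sequences are from RefSeq on GRCm38.p6 (mm10, the build of the files) and run 5′ to 3′ on the gene's strand: Tnmd at chrX:133850758-133851007 (+), Zfp185 at chrX:72987089-72987338 (+), Thbs4 at chr13:92794819-92795068 (-) and Fmod at chr1:134037004-134037253 (+).
Tnmd: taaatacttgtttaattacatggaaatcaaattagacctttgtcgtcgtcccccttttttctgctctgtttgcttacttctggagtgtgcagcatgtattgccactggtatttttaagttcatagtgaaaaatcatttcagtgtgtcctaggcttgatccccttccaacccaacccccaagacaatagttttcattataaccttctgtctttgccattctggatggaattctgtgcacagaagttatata
Zfp185: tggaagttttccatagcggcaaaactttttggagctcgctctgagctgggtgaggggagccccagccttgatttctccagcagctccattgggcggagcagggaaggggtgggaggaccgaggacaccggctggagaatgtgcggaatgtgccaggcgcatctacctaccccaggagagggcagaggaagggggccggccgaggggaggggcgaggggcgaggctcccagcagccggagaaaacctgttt
Thbs4: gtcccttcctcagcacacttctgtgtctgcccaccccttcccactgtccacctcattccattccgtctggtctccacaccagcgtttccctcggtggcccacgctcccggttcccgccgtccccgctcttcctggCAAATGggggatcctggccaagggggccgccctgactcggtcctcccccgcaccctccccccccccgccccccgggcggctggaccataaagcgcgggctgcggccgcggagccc
Fmod: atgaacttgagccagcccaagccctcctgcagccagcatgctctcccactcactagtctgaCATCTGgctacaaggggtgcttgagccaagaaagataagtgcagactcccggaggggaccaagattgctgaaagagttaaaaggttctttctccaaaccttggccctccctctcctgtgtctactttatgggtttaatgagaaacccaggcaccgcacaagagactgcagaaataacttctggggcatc
The windows of Tnmd and Zfp185 held no CANNTG, and those of Thbs4 and Fmod held 1 each (CAAATG and CATCTG). The letters CANNTG stood in 66.2% of 32851 such windows of annotated genes, in 57.6% of the 14298 windows of the start sites tested, in 7 of 15 windows (46.7%) of the more accessible and in 30 of 42 windows (71.4%) of the less accessible start sites. CAGATG, read on either strand, stood in 2 of these 15 and 3 of these 42 windows, against 10.1% of the windows tested. These windows covered only 10 of the 16 more accessible and 27 of the 47 less accessible genes. Some genes had several windows, and Scx had none.

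A Tnmd start site peak was called in the WT E18.5 library only, so Tnmd was not among the start sites tested. There tenocyte nuclei held 51 counts (12.8 CPM) and mesenchymal nuclei 11 counts (1.01 CPM), a 12.6-fold difference (5.13 to 45.6). Fmod had 60.4 CPM in tenocyte and 11.2 CPM in mesenchymal nuclei of Cacna1s-/- fetuses (5.41-fold, 2.28 to 11.05), 30.8 and 5.22 CPM at WT E18.5 (5.89-fold, 3.74 to 9.66) and 45.4 and 9.28 CPM at P5 (4.89-fold, 3.03 to 7.96). At E14.5 the Fmod start site had 0 counts in the 61 tenocyte nuclei, against 9.86 CPM in mesenchymal nuclei. Thbs4 had 23.6 and 8.25 CPM in Cacna1s-/-, 11.4 and 9.38 CPM at E14.5, 22.3 and 7.88 CPM at WT E18.5 (2.82-fold, 1.79 to 4.35), and 15.1 and 4.78 CPM at P5.

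The RNA of the 5 rule genes chose the nuclei, so it is given as a description only. Mkx was seen in 95% of tenocyte nuclei in the Cacna1s-/- library and in 91.8%, 80.4% and 85.8% at WT E14.5, E18.5 and P5. Tnmd had 322 CPM in Cacna1s-/- tenocytes and 426, 608 and 720.4 CPM at these WT stages, and Fmod had 86.8 CPM, against 37.3, 161 and 195 CPM. The median nucleus held 13.5 UMIs of the 5 genes in the Cacna1s-/- library and 9, 12 and 13 at the WT stages, with 4 as the lowest and 85 as the highest. All 5 genes were seen together in 13 Cacna1s-/- nuclei, and in 3, 60 and 35 WT nuclei. Just inside the threshold, 7 Cacna1s-/- nuclei had exactly 4 UMIs and 6 just outside it had 3 with at least 1 of Tnmd. The same counts were 10 and 13 at WT E14.5, 22 and 28 at E18.5, and 13 and 9 at P5.

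Other tendon genes, which the rule did not count, were mostly higher in tenocyte nuclei. Scx RNA had 18.7 CPM in tenocyte nuclei and 1.11 CPM in mesenchymal nuclei of Cacna1s-/- fetuses (16.9-fold, 7.11 to 41.0). In WT libraries Scx had 31.1 and 1.63 CPM at E14.5 (19.1-fold), 28.1 and 0.533 CPM at E18.5 (52.7-fold, 21.7 to 166), and 20.8 and 0.481 CPM at P5 (43.2-fold, 13.6 to 220.0). Across genes, 144 of 9911 (1.45%) were at least 2-fold higher in tenocyte nuclei in each of these 4 libraries and 68 (0.686%) at least 2-fold lower. Of 12 tendon genes outside the rule, 6 were in the higher set (Scx, Cilp2, Comp, Cpxm2, Col11a1 and Ptx4) and 11 were higher in each library. These RNA differences are given without a test and are not independent support for the label. The nuclei were chosen by RNA of the same libraries, and the mesenchymal set by holding little RNA of the rule genes. The 12 tendon genes were chosen with earlier results of these data known.

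The genes with the highest lowest ratio of tenocyte over mesenchymal nuclei across libraries included Zfp185, Khdrbs2 and Chst5. Zfp185 RNA, which went with its open start site, had 292 and 13 CPM in Cacna1s-/-, and 205 and 14.0, 336 and 10.6, and 366 and 9.79 CPM at WT E14.5, E18.5 and P5 (14.7-fold to 37.4-fold). Khdrbs2, an RNA-binding splicing regulator, had 483 and 6.25 CPM in Cacna1s-/- (77.4-fold), 1134 and 83.5 CPM at E14.5 (13.6-fold), 407 and 8.64 CPM at E18.5 (47.1-fold), and 428 and 4.81 CPM at P5 (88.9-fold). Chst5, a sulfotransferase of keratan sulfate, the glycan carried by Kera and Fmod, was 77.3-fold higher in Cacna1s-/- and 10.2-fold, 38.8-fold and 97.3-fold (25.6 to 825) higher at the WT stages. Pls1, an actin bundler (7.86-fold to 49.1-fold), Syt7, a calcium sensor of secretion (6.59-fold to 30.9-fold), Nalcn, a sodium leak channel (6.31-fold to 21.3-fold), Itgbl1 (5.89-fold to 53.6-fold), C1qtnf3 (7.13-fold to 14.9-fold) and Itga2, a collagen-binding integrin subunit (5.89-fold to 12.9-fold), were higher in each library.

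Collagen I was shared with the mesenchyme at a lower level. Col1a1 was 2.62-fold higher in tenocyte than in mesenchymal nuclei of Cacna1s-/- fetuses, and 2.42-fold, 4.84-fold and 3.74-fold higher at WT E14.5, E18.5 and P5. Col11a1, a fibril-nucleating collagen, was 8.07-fold higher in Cacna1s-/- and 3.71-fold, 12.7-fold and 14.6-fold higher at the WT stages. Genes lower in tenocyte nuclei in each library included Nrxn3 (0.0285 to 0.214 of the mesenchymal level), whose start site was also less accessible, Smoc2, a matrix protein (0.196 to 0.319), Col6a6 (0.192 to 0.308) and Abca8a, a lipid transporter of mature fibroblasts (0.164 to 0.332).

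Tenocyte nuclei were 3.56% (2.83 to 4.41) of the nuclei below the muscle limit in the Cacna1s-/- library (80 of 2247) and 14.4% (13.1 to 15.8) in the WT library of the same age (388 of 2698). Along the WT stages they were 2.03% (1.56 to 2.60) of 3003 at E14.5, 14.4% at E18.5, 12.1% (10.7 to 13.6) of 1983 at P5 and 0.278% (0.0337 to 1.00) of 719 in the adult. Per 100 mesenchymal nuclei the numbers were 6.97 in Cacna1s-/- fetuses and 3.63, 25.8, 18.9 and 1.32 along the WT stages, which is the same order as for the shares. The intervals of Cacna1s-/- and WT at E18.5 were far apart, as were those of E18.5 and E14.5.

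Depth and the Tnmd requirement moved these shares, and the Cacna1s-/- share was below the WT E18.5 share in each case. After each nucleus was thinned to 2000 UMIs, 1.18% (0.773 to 1.73) of 2200 Cacna1s-/- nuclei and 6.81% (5.87 to 7.85) of 2583 WT E18.5 nuclei met the rule, with 47 and 115 shallower nuclei left out. The thinned WT shares were 0.778% at E14.5 and 7.43% (6.25 to 8.76) at P5, so the order of P5 and E18.5 turned round and their intervals overlapped. In the adult, 0 of 206 thinned nuclei met the rule, which allows a share of up to 1.46% by a floor of 3 counts and up to 1.77% by the exact interval. Without the Tnmd requirement the share was 7.30% in Cacna1s-/- and 17.5% at WT E18.5, with 5.39% at E14.5 and 14.0% at P5.

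**Figure D2:**
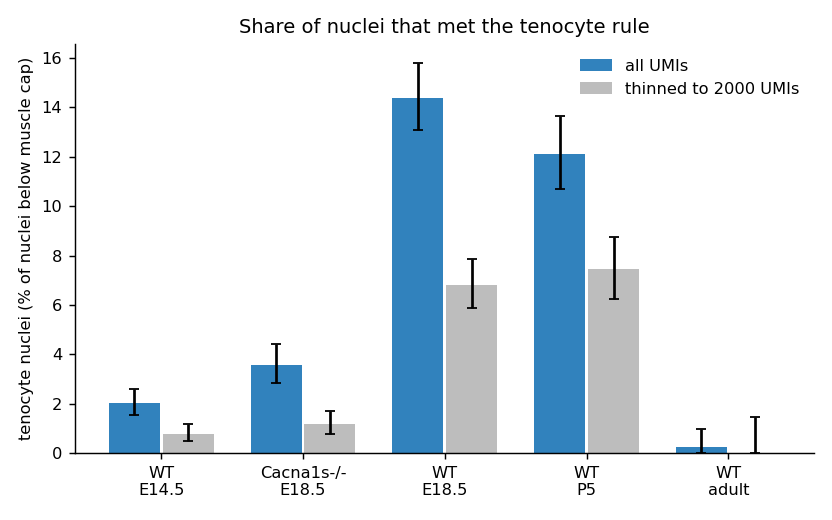
Share of nuclei below the muscle limit that met the tenocyte rule (percent), with all UMIs (blue) and after thinning each nucleus to 2000 UMIs (grey), by library; error bars are exact 95% binomial intervals. The Cacna1s-/- bar (3.56%) stands left of the WT E18.5 bar (14.4%), and the thinned bars keep that order (1.18% and 6.81%).

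Between E14.5 and E18.5 the level of matrix RNA in tenocyte nuclei differed widely, with most matrix genes higher at the later stage. At least 2-fold differences were found for 1587 of 11052 measured genes in the higher direction (14.4%) and 740 in the lower (6.7%), with a median over all genes of 0.07 (log2). Of 23 matrix glycoproteins, 19 were higher at E18.5 and 13 at least 2-fold, with a median of 1.15. Of 9 proteoglycans all were higher and 5 at least 2-fold (median 1.24), and of 19 genes of collagen modification and cross-linking all were higher and 4 at least 2-fold (median 0.79). The medians of the same lists in mesenchymal nuclei were 0.60, 0.63 and 0.60. Among the 12 tendon genes outside the rule, 9 were higher and 7 at least 2-fold, with a median of 1.12 in tenocyte nuclei. The median was -0.50 in mesenchymal nuclei, where only 8 of the 12 had enough UMIs. These medians thus cover different genes, and no test was made of that difference. Depth was uneven, with 2991602 UMIs in the E18.5 and 321970 in the E14.5 tenocyte nuclei.

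Of 10 fibrillar collagens all were higher at E18.5 and 4 at least 2-fold (median 0.55, and 0.65 in mesenchymal nuclei). Col1a1 had 5460.3 CPM at E18.5 and 811 CPM at E14.5 (6.74-fold, 5.96 to 7.64), against 3.37-fold in mesenchymal nuclei. Col1a2 had 5944 and 1857 CPM (3.20-fold, 2.95 to 3.48), while Col5a2 was 1.02-fold and Col3a1 1.38-fold (1.25 to 1.53). Col11a2 was 5.20-fold higher (2.96 to 10.1) in tenocyte nuclei and at 0.854 of the earlier level in mesenchymal nuclei. Collagen VI, a beaded filament around fibrils, was higher for Col6a1 (332 and 49.7 CPM, 6.68-fold, 4.09 to 11.7), Col6a2 (4.72-fold) and Col6a3 (5.20-fold, 4.14 to 6.63). Col22a1, a collagen of the muscle-tendon junction, was at 92.6 and 186 CPM (0.497-fold, 0.375 to 0.668), and Col15a1 held 249 UMIs at E18.5 and 0 at E14.5 (at least 8.93-fold higher against a floor of 3 counts).

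Comp and Acan were at or near 0 in the shallower E14.5 sum, while Tnc and Tgfbi were present there at lower levels than at E18.5. Comp, a collagen-binding glycoprotein, had 79 UMIs at E18.5 and 0 at E14.5 (at least 2.83-fold higher), and Acan, the large aggregating proteoglycan, had 375 and 2 UMIs (20.2-fold, 5.55 to 167), against 1.16-fold in mesenchymal nuclei. Tnc, tenascin-C, had 412 and 152 CPM (2.71-fold, 2.04 to 3.68), and Tgfbi 125 and 40.4 CPM (3.09-fold, 1.78 to 5.85), while both lay below 1 in mesenchymal nuclei (0.739 and 0.861). Scx itself had 28.1 and 31.1 CPM (0.904-fold, 0.468 to 1.95), a difference within counting error, and the 12 transcription factors of tendon had a median of -0.04.

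The 14 limb patterning genes had no common direction (median -0.02, with 1 at least 2-fold higher and 3 lower at E18.5). Meis2, a homeobox factor, had 177 and 761 CPM (0.233-fold, 0.200 to 0.273), Meis1 168 and 453 CPM, and Rspo3, an enhancer of Wnt signals, 24.1 and 134 CPM (0.180-fold, 0.122 to 0.269). Eya1, a transcriptional coactivator, was lower too (0.593-fold). Meis2 and Rspo3 were also lower in mesenchymal nuclei (0.409 and 0.307). Piezo2, a stretch-gated channel, had 545 and 1171 CPM (0.465-fold). Of the 8 largest ratios in each direction, Acan, Rapgef4 (172 and 9.32 CPM, interval of the ratio 6.30 to 90.1) and the retinoic acid enzyme Aldh1a1 (14.4-fold, 3.95 to 120) were higher on 2 or 3 UMIs at E14.5. Ak5 (15.6-fold, 5.29 to 75.8) had 3 UMIs there, and Grb14 (18.1-fold, 3.20 to 718), Crip1 (17.5-fold, 3.10 to 697), Gsap (16.4-fold, 2.89 to 650) and Sparcl1 (14.2-fold, 2.51 to 565) had 1 each. Over the alternatives the lowest log2 ratios were 1.13 for Grb14 (without the Tnmd requirement), 1.54 for Sparcl1, 2.08 for Aldh1a1, 2.43 for Rapgef4 and 2.52 for Gsap. The lowest were Ralyl (68.1-fold lower), Cntn5 (40.8-fold), Egfem1 (37.2-fold), Nkain3 (19.4-fold), Tafa1 (14.0-fold), Nol4 (11.4-fold), Sorcs3 (10.2-fold) and Mei4 (20.8-fold). For Ralyl, 81.8% of the E14.5 UMIs stood in 1 nucleus, while Mei4 was seen in 12 of the 61 nuclei.

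At P5 several late matrix genes stood higher than at E18.5, and fetal growth genes stood lower. Of 11829 genes, 508 (4.29%) were at least 2-fold higher and 1304 (11.0%) at least 2-fold lower at P5, with a median of -0.19, and with TMM scaling the counts were 743 and 903. Cilp2, a cartilage intermediate layer protein, had 38.6 CPM at P5 and 7.35 CPM at E18.5 (5.24-fold, 3.18 to 8.95). It had 0 UMIs at E14.5, where the floor of 3 counts lay above the E18.5 value, so those 2 stages gave no direction. Comp had 60.0 and 26.4 CPM (2.27-fold, 1.67 to 3.09), and Cpxm2, a carboxypeptidase-like protein, was 2.50-fold higher (1.74 to 3.60). Dcn, decorin, had 873 and 292 CPM (2.99-fold, 2.74 to 3.25), and Matn4 had 49.6 and 13 CPM (3.80-fold, 2.56 to 5.72), against 0.645-fold in mesenchymal nuclei. Of the 12 tendon genes, 10 were higher and 3 at least 2-fold (median 0.51).

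The collagen I genes differed in direction. Col1a1 had 4348 CPM at P5 and 5460.3 CPM at E18.5 (0.796-fold, 0.774 to 0.819), while Col1a2 had 8184 and 5944 CPM (1.38-fold, 1.35 to 1.41), and the 10 fibrillar collagens had a median of 0.20. Col12a1, which decorates collagen I fibrils, had 2498 and 1523 CPM (1.64-fold, 1.57 to 1.71), against 0.461-fold in mesenchymal nuclei. Serpinh1, the collagen chaperone, was lower (93.0 and 201 CPM, 0.463-fold), as was Acan (61.8 and 125 CPM). Scx had 20.8 and 28.1 CPM (0.741-fold, 0.482 to 1.12).

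Growth genes differed in direction too. Igf1 had 753 and 343 CPM (2.19-fold, 2.02 to 2.38), while Igf2 was at 0.549 and its binding protein Igfbp2 at 0.128 of the E18.5 level (0.0254 to 0.399, on 3 UMIs at P5). Imprinted growth genes were lower for 13 of 14 and at least 2-fold lower for 4 (median -0.54), with H19 at 75.9 and 195 CPM, Dlk1 at 229 and 643 CPM and the cell cycle inhibitor Cdkn1c at 44.1 and 127 CPM. Of 15 cell division genes, 14 were at least 2-fold lower at P5 (median -1.57, and -1.32 in mesenchymal nuclei), including Top2a (70.4 and 302 CPM) and Mki67 (37.3 and 125 CPM). The largest ratios were those of Nr4a3, an orphan nuclear receptor (48.5-fold, 12.8 to 411, 53 UMIs in 18 nuclei at P5 and 2 UMIs at E18.5), Mapk4 (8.85-fold), C1qtnf2 (7.02-fold), Vit (5.21-fold) and Slc25a21 (5.16-fold), beside Cilp2. Gabrb2 (10.6-fold) and Cntn5 (6.53-fold) had more than 50% of their P5 UMIs in 1 nucleus. Among the lowest were Kcnq3 (32.8-fold lower, 5.66 to 1316), Cgas, a cytosolic DNA sensor (20.2-fold, 5.40 to 170.0), the mitotic kinase Aurka (13.9-fold, 3.66 to 118), Cenpl, a centromere protein (13.4-fold, 3.51 to 114), the histone chaperone Asf1b (9.56-fold, 3.57 to 36.1), C1qb (at least 9.28-fold) and Megf6 (9.10-fold, 2.94 to 45.6). At P5 these genes held 0 to 4 UMIs, and over the alternatives Cenpl came as near to 0 as -1.42 and Kcnq3 as -2.98 (log2). C1qb, a macrophage gene, had its 51 UMIs in 7 of the 388 E18.5 nuclei.

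**Figure D3:**
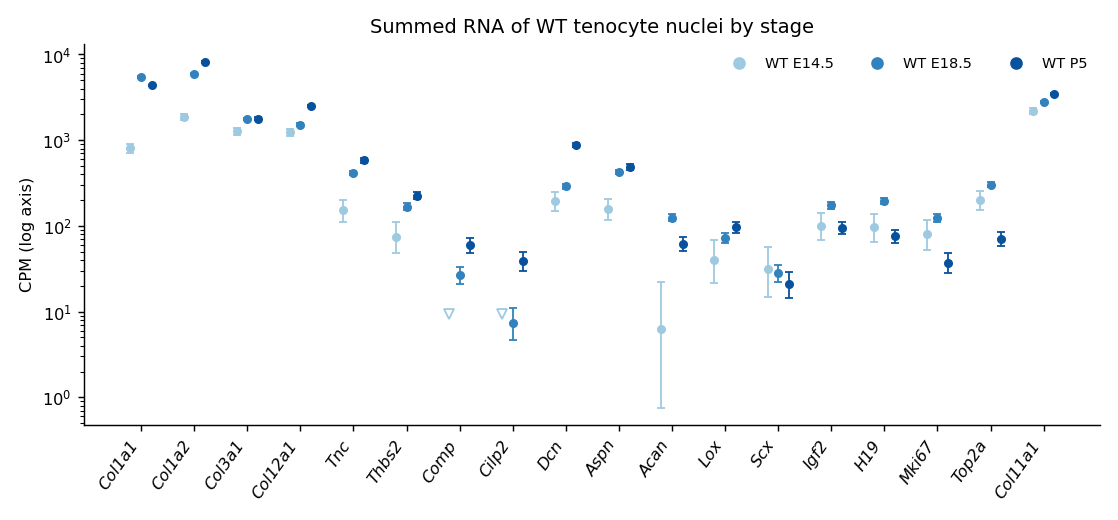
CPM (log axis) of 18 genes in tenocyte nuclei of the WT libraries at E14.5, E18.5 and P5, with 95% counting intervals; open triangles mark the value of 3 counts where none was found (Comp and Cilp2 at E14.5). Col1a1 is highest at E18.5 (5460.3 CPM), and Cilp2 and Comp are highest at P5 (38.6 and 60.0 CPM).

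Tenocyte nuclei of Cacna1s-/- fetuses held less RNA of collagens, collagen modification genes and matrix glycoproteins than WT nuclei of the same age. Over 11405 measured genes, 643 (5.64%) were at least 2-fold higher and 1335 (11.7%) at least 2-fold lower in Cacna1s-/-, with a median of -0.12, and TMM scaling gave 816 and 1132 with a median of -0.02. All 10 fibrillar collagens were lower and 2 at least 2-fold, with a median of -0.58. Of 12 tendon genes outside the rule, 10 were lower and 4 at least 2-fold (median -0.61). In mesenchymal nuclei the median was -0.17, over only the 7 of these genes with enough UMIs there. Of 19 genes of collagen modification, 15 were lower and 6 at least 2-fold (median -0.76), and of 23 matrix glycoproteins 17 were lower and 7 at least 2-fold (median -0.39). Of 9 proteoglycans, 6 were lower and 3 at least 2-fold (median -0.32), while the summed level of the list was close (1960 and 1996 CPM). In mesenchymal nuclei the medians were -0.58 for fibrillar collagens, -0.76 for collagen modification, -0.48 for matrix glycoproteins and -0.77 for proteoglycans.

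Collagen I RNA was lower in both genes. Col1a1 had 1464 CPM (1097 UMIs) in Cacna1s-/- and 5460.3 CPM (16335 UMIs) in WT tenocyte nuclei, a ratio of 0.268 (0.252 to 0.285), against 0.495 in mesenchymal nuclei. The median tenocyte nucleus held 7619 UMIs in Cacna1s-/- and 6242.5 in WT, and after thinning to 2000 UMIs a Col1a1 UMI was seen in 83.8% and 91.6% of nuclei (98.8% and 100% unthinned). In nuclei at or above the muscle limit, which should lack Col1a1, the thinned shares were 9.68% and 21.7%. Col1a2 had 2898 and 5944 CPM (0.488, 0.466 to 0.510). Col3a1 (0.679), Col5a1 (0.667), Col5a2 (0.824) and Col11a1 (0.801) lay closer to WT. Collagen VI was lower (Col6a1 0.410, Col6a2 0.364, Col6a3 0.564), and so was Col12a1 (859.7 and 1523 CPM, 0.564). Col22a1 had 16.0 and 92.6 CPM (0.173, 0.0883 to 0.307). In nuclei at or above the muscle limit, a Col22a1 UMI was seen after thinning in 3.95% of Cacna1s-/- and 10.0% of WT nuclei, and the part of free muscle RNA in the tenocyte value was not tested.

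The matrix glycoproteins differed widely in how far they lay from WT. Tnc had 72.1 CPM in Cacna1s-/- and 412 CPM in WT nuclei (0.175, 0.131 to 0.230), and a Tnc UMI was seen in 7.50% and 35.8% of thinned nuclei (18.8% and 60.3% unthinned). The thinned Tnc shares were 7.23% and 10.8% in mesenchymal nuclei and 4.47% and 19.6% in nuclei at or above the muscle limit, and the part of RNA from other nuclei in the tenocyte values was not tested. Tgfbi had 13.3 and 125 CPM (0.107, 0.0509 to 0.199) and was seen in 1.25% and 19.8% of thinned nuclei (12.5% and 43.6% unthinned), against 1.41% and 3.70% of mesenchymal nuclei and 0.624% and 1.82% of nuclei at or above the muscle limit. Thbs3, a thrombospondin, had 21.4 and 131 CPM (0.163), and Comp had 1 and 79 UMIs (0.0506, 0.00126 to 0.290). Sparc (406 and 926 CPM, 0.438) and Fn1, fibronectin (392 and 758 CPM, 0.518), were lower to a smaller degree. Thbs2 (174 and 167 CPM), Fbn2 (1109 and 1058 CPM) and Postn (1.04) differed little. In mesenchymal nuclei the ratios were 0.543 for Tnc, 0.312 for Tgfbi and 0.141 for Thbs3.

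Fibril-shaping proteins and enzymes also differed in direction. Bgn, biglycan, had 88.1 and 265 CPM (0.332), and Acan 38.7 and 125 CPM (0.309), while Ogn, osteoglycin, was higher (455 and 244 CPM, 1.86-fold, 1.63 to 2.12) and Dcn was 1.13-fold. Lox, the collagen cross-linking oxidase, was higher (135 and 72.5 CPM, 1.86-fold, 1.45 to 2.36), whereas the procollagen protease Adamts14 (0.323), the prolyl hydroxylase subunit P4ha3 (0.472), Pcolce (0.506) and Serpinh1 (0.578) were lower. Itga10, a collagen receptor subunit, had 21.4 and 91.9 CPM (0.232, 0.131 to 0.384).

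The transcription factors of tendon had no common direction. Of 12, 6 were higher and 6 lower with none at 2-fold, and the median was -0.09. Scx had 18.7 CPM (14 UMIs) in Cacna1s-/- and 28.1 CPM (84 UMIs) in WT nuclei, a ratio of 0.666 whose interval (0.349 to 1.18) reached above 1. A Scx UMI was seen in 13.8% and 17.5% of all tenocyte nuclei (5.00% and 5.48% in one random thinning, 2.50% and 5.48% in another), against 0.872% and 0.332% of mesenchymal nuclei. Chodl, a membrane lectin of tendon, had 163 and 197 CPM (0.829, 0.676 to 1.01). Its log2 ratio was -1.03 without nuclei holding RNA of other types (satellite cell, endothelial, macrophage, Schwann cell, smooth muscle or adipocyte markers). Over the alternatives the log2 ratio of Scx ranged from -1.46 to -0.21. The start site of Scx held 63.1 and 58.8 ATAC CPM (1.07-fold), and that of Col1a1 139 and 122 CPM (1.14-fold, 0.72 to 1.69). Comp (10.5 and 30.0 CPM, 0.35, 0.04 to 1.32) and Etv4 (10.5 and 35.3 CPM, 0.30, 0.04 to 1.13) had lower values with intervals that included 1. Peaks were called in each library apart, so start site values between libraries depend on that call.

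Of 11 FGF genes, 5 were higher and 6 lower in Cacna1s-/-, 3 of them at least 2-fold. Etv4, an ETS factor induced by FGF, had 4.00 and 46.8 CPM (3 and 140 UMIs, ratio 0.0856, 0.0174 to 0.255), and it was seen in 2 of the 80 Cacna1s-/- and 78 of the 388 WT nuclei. Dusp6, the ERK phosphatase, had 0 and 76 UMIs (at least 6.3-fold lower). Etv5 had 10 and 110 UMIs (0.363, 0.169 to 0.693), but its log2 ratio was -0.01 when the Tnmd requirement was dropped. Spry1 (1.31), Spry4 (0.757) and the ligand Fgf18 (1.13) lay nearer to WT, and the median of the 11 FGF genes was -0.04, against -0.78 without nuclei holding RNA of other types. In mesenchymal nuclei Etv4 was at 0.827, Dusp6 at 1.11 and Etv5 at 1.01 of the WT level. Cartilage genes had a median of -1.30 over 8 genes, 5 of them at least 2-fold lower, with Sox9, the cartilage factor also seen at tendon attachments, at 3 and 44 UMIs (0.272, 0.0541 to 0.849). Without nuclei of other types the log2 ratio of Sox9 was -0.62, against -1.88 with them. Of 7 sheath genes, 2 were higher and 5 lower, 3 of them at least 2-fold (median -0.77, and -1.51 in mesenchymal nuclei), and the median was -0.30 without nuclei holding RNA of other types. Among them Creb5 had 178 and 539 CPM (0.329) and Tppp3 0 and 62 UMIs, with 0.256 and 0.0657 in mesenchymal nuclei. Piezo1 (90.8 and 209.6 CPM) was lower and Piezo2 (897 and 545 CPM, 1.65-fold) higher.

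Secreted regulators and a limb homeobox factor were higher in Cacna1s-/- tenocytes. Fst, follistatin, an activin and myostatin binder, had 52.1 and 11.0 CPM (4.72-fold, 2.89 to 7.74). Rspo3 had 76.1 and 24.1 CPM (3.16-fold, 2.19 to 4.54) and Meis2 465 and 177 CPM (2.62-fold, 2.28 to 3.00). The IGF binding proteins Igfbp3 (2.37-fold) and Igfbp5 (154 and 71.2 CPM, 2.16-fold) were higher, and Igfbp5 was at 0.822 in mesenchymal nuclei. Without nuclei holding RNA of other types the log2 ratio of Igfbp3 was 0.33, below 2-fold, while those of Igfbp5 (2.37), Fst (3.76), Rspo3 (2.78) and Meis2 (2.05) were larger. Without the Tnmd requirement Igfbp5 was at 0.65. At WT E14.5 Rspo3 had 134 CPM and Meis2 761 CPM, and both comparisons share the WT E18.5 library.

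The largest ratios upward included several carried by single nuclei. Rmst, a long non-coding RNA, was 26.4-fold higher (16.4 to 44.6) in 5 nuclei with 57.6% of UMIs in 1, and its log2 ratio was 0.97 when at least 6 UMIs of the rule genes were asked for. Hs3st5 (10.7-fold), Lingo2 (8.18-fold), Ptprt (7.33-fold) and Tafa2 (6.01-fold) had 45.6% to 88.6% of their UMIs in 1 nucleus, Tafa2 turned to a log2 ratio of -1.55 in nuclei with at least 1000 ATAC counts, and Sorcs3 (6.78-fold) was seen in 17 nuclei. Lonrf3, a RING finger protein, was spread over 46 of 80 Cacna1s-/- and 38 of 388 WT nuclei (137 and 22.7 CPM, 6.05-fold, 4.41 to 8.34), and 3.06-fold higher in mesenchymal nuclei. Cpe, a carboxypeptidase, was seen in 24 and 31 nuclei (6.48-fold).

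Car10, a carbonic anhydrase-related protein, was 20.2-fold lower (11.2 to 40.6) in Cacna1s-/- tenocytes, with 14.7 and 297 CPM (11 and 888 UMIs in 3 and 126 nuclei). After thinning, 1.25% of Cacna1s-/- and 23.0% of WT E18.5 tenocyte nuclei held a Car10 UMI (3.75% and 32.5% unthinned), against 3.09% and 1.65% of mesenchymal nuclei and 1.35% and 2.47% of nuclei at or above the muscle limit. WT tenocytes had 544 CPM at E14.5 and 202 CPM at P5, so each WT stage lay above the Cacna1s-/- value. In mesenchymal nuclei Car10 was at 31.0 CPM in Cacna1s-/- and 18 CPM in WT. The other lowest ratios rested on 1 to 3 UMIs in Cacna1s-/-. Crip1 (13.6-fold lower, 4.57 to 66.7), Gas2l1 (12.5-fold, 2.15 to 504) and Hapln1, the hyaluronan link protein (11.3-fold, 3.03 to 94.5), stood beside Comp (19.8-fold, 3.45 to 791) and Etv4 (11.7-fold, 3.92 to 57.3). Smpd3 (21.0-fold, 3.67 to 841) had 64.3% of its WT UMIs in 1 nucleus, and Ddx60 (16.0-fold, 2.78 to 643) had 64 WT UMIs in 15 nuclei. Without the Tnmd requirement Smpd3 turned to a log2 ratio of 0.98 and Ddx60 was at -0.07, and without nuclei holding RNA of other types Gas2l1 was at -0.79, below 2-fold.

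**Figure D4:**
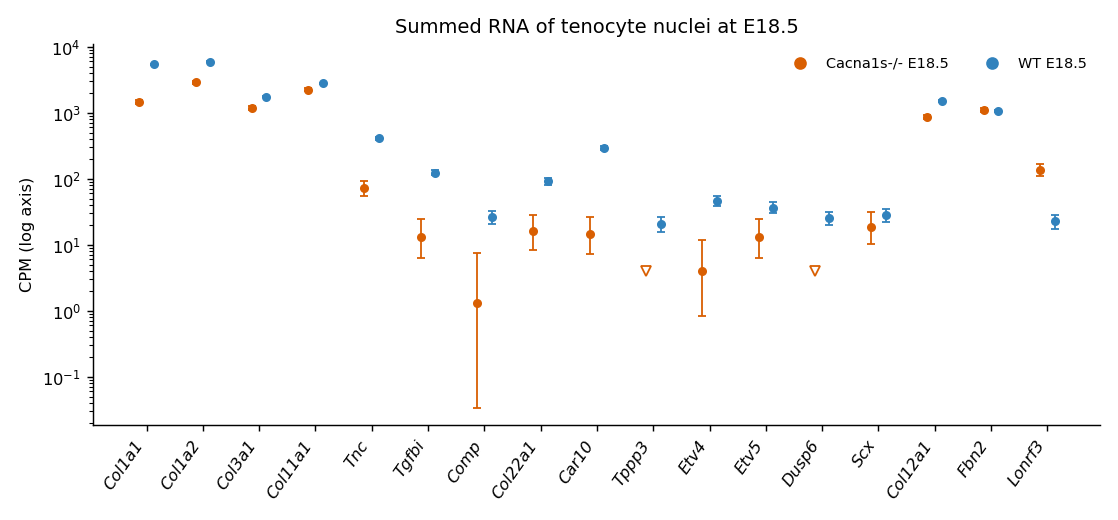
CPM (log axis) of 17 genes in tenocyte nuclei of the Cacna1s-/- (orange, left) and WT (blue, right) E18.5 libraries, with 95% counting intervals; open triangles mark the value of 3 counts where none was found (Dusp6 and Tppp3 in Cacna1s-/-). Col1a1 (1464 and 5460.3 CPM), Tnc (72.1 and 412 CPM) and Car10 (14.7 and 297 CPM) are lower in Cacna1s-/-, and the Scx intervals overlap.

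**Figure D5:**
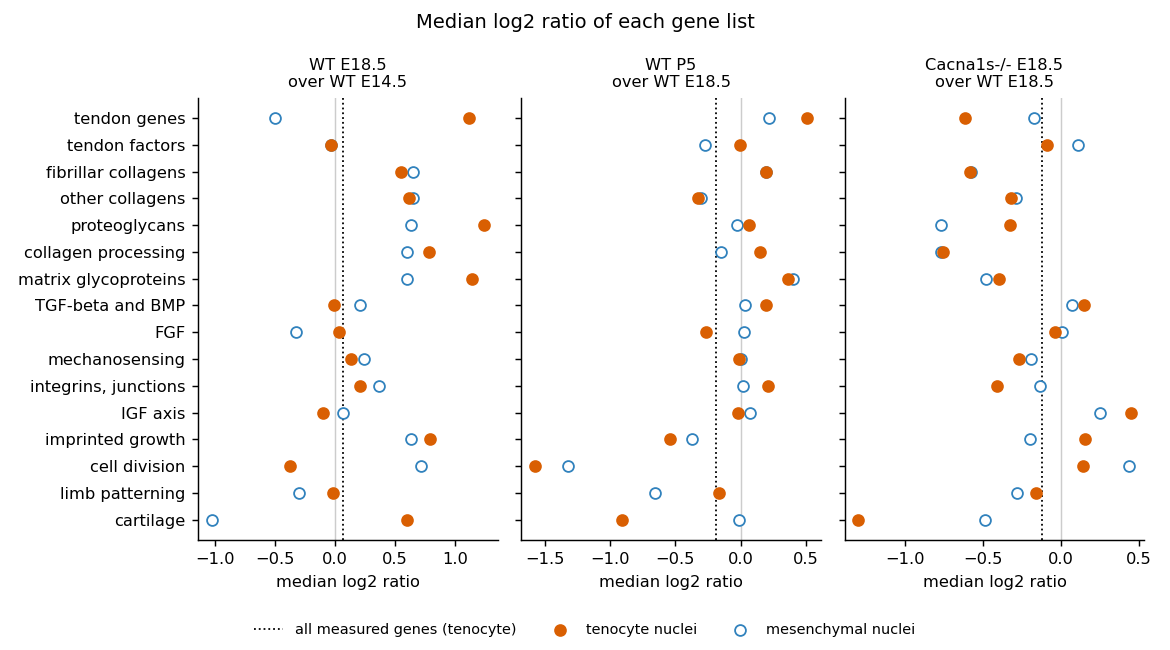
Median log2 ratio of 16 gene lists in tenocyte nuclei (filled) and mesenchymal nuclei (open) for E18.5 over E14.5, P5 over E18.5 and Cacna1s-/- over WT at E18.5; the dotted line is the median of all measured genes. Matrix lists lie right of the line for E18.5 over E14.5 and left of it for Cacna1s-/- over WT, and cell division lies far left for P5 over E18.5 (-1.57). Mesenchymal medians leave out members with under 20 UMIs in the mesenchymal pair, so some cover fewer genes.

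Cell division varied within the set. After thinning, a UMI of any of the 15 division genes was seen in 23.8% (15.0 to 34.6) of 80 Cacna1s-/- tenocyte nuclei and 25.6% (21.3 to 30.3) of 383 WT nuclei at E18.5. Along the WT stages the share was 42.4% (29.6 to 55.9) at E14.5, 25.6% at E18.5 and 16.5% (12 to 21.8) at P5. Mesenchymal nuclei had 36.8% in Cacna1s-/- and 27.1%, 28.2% and 14.4% at the WT stages. The median log2 ratio of the division genes for Cacna1s-/- over WT was 0.14 (0.44 in mesenchymal nuclei), and it was -0.81 without nuclei holding RNA of other types.

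RNA of other cell types was present and differed between the libraries. The 6 macrophage markers summed to 25.4 CPM in Cacna1s-/- and 272 CPM in WT tenocyte nuclei at E18.5, with 3 or more UMIs in 3 and 8 nuclei, and Adgre1 and Cd163 were at 0 in Cacna1s-/-. The 6 satellite cell markers, Pax7 among them, summed to 278 and 124 CPM (22 and 33 nuclei), the 12 muscle fibre markers to 339 and 529 CPM (11 and 92 nuclei), and the 6 endothelial markers to 65.4 and 129 CPM (3 and 20 nuclei). At E14.5 and P5 the sums were 3.11 and 56.9 CPM for macrophage, 118 and 89.4 CPM for satellite cell, 311 and 274 CPM for muscle fibre and 52.8 and 151 CPM for endothelial markers. The 8 bone markers summed to 168 CPM in Cacna1s-/- and 243 CPM in WT at E18.5 (86.5 and 88.8 CPM in mesenchymal nuclei), with 3 or more UMIs in 14 of 80 and 60 of 388 nuclei. Runx2 had 105 of the 126 Cacna1s-/- and 455 of the 727 WT UMIs, and the defining bone genes Bglap, Dmp1 and Mepe were at 0 in each tenocyte set. The 12 cartilage and attachment markers summed to 1215 CPM in Cacna1s-/- and 1392 CPM in WT (529 and 399 CPM in mesenchymal nuclei). They had 3 or more UMIs in 66 of 80 and 322 of 388 nuclei. Whether the set holds attachment or cartilage-like nuclei was not tested. A filter left out nuclei with 3 or more UMIs of satellite cell, endothelial, macrophage, Schwann cell, smooth muscle or adipocyte markers. Smooth muscle markers reached this number in 18 Cacna1s-/- and 64 WT nuclei. Muscle fibre, bone and cartilage markers were not used by the filter. With it, 48 Cacna1s-/- and 283 WT nuclei stayed. The log2 ratios were then -1.51 for Col1a1, -3.80 for Tnc, -3.15 for Tgfbi, -4.37 for Car10 and -2.41 for Etv4. Over all tenocyte nuclei they were -1.90, -2.52, -3.22, -4.34 and -3.55. The medians with the filter were -0.36 for the fibrillar collagens and -0.52 for the tendon genes. Without the Tnmd requirement Tgfbi was at -2.03 and Col22a1 at -1.49.

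The adult library gave 2 nuclei with 4508 UMIs together, too few for a comparison. They held 3 UMIs of Tnmd, 7 of Mkx, 3 of Thbs4, 2 of Fmod and 0 of Kera, with 7 of Chodl, 14 of Col22a1, 3 of Col1a2 and 0 of Col1a1.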

How the data were processed

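RNA and ATAC were read from the same nuclei with the 10x Multiome assay, 1 library a group. Per the submitters' processing notes, the authors ran Cell Ranger ARC 2.0.0 on mm10, and the deposited files hold whole-number counts for each nucleus, UMI counts for each gene (intronic reads included) and ATAC cut-site counts for each peak, with peaks called in each library apart. Doublets were not called here. The quality limits used here left more nuclei in the WT libraries than the study names. A supplementary legend of the study also gives a lower limit on ATAC counts, which was not applied here. The Cacna1s-/- library lists fewer barcodes than the study names.

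Counts of all nuclei of a set were summed in each library. CPM ratios with exact conditional 95% intervals were given for genes with at least 20 UMIs in the pair, and a sum of 0 was set to a floor of 3 counts. Of the ATAC values over 80% were even, so ATAC intervals were computed on counts divided by 2. Start sites were tested if they had a called peak in all 5 libraries and at least 10 counts in at least 5 of the 10 sums. The test was edgeR 4.0.16 (quasi-likelihood, TMM, Benjamini-Hochberg, R 4.3.3) on 5 tenocyte and 5 mesenchymal sums with the library as a block. DESeq2 1.42.0 was an alternative. On simulated counts for these start sites, 85% of the 2-fold and 100% of the 4-fold changes were called. The simulation used 1 common spread for all start sites and the same fold in each library. Measured folds differed between libraries, so these shares may not hold for the data.

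Named genes were the 8 highest and 8 lowest ratios of a comparison among genes with at least 50 UMIs (higher in tenocytes than in the other nuclei of the library where they were higher; mitochondrial, ribosomal, haemoglobin and unnamed genes left out), the 12 genes with the highest lowest ratio of tenocyte over mesenchymal nuclei, the 8 largest and 8 lowest start site calls, and members of the lists. Some named genes are not reported here. The members and lists were chosen with earlier results of these data known. Further alternatives were the UMI minimum, TMM scaling, at least 6 rule gene UMIs, no Tnmd requirement and at least 1000 ATAC counts a nucleus. Each library was also left out. Nuclei with RNA of other types (satellite cell, endothelial, macrophage, Schwann cell, smooth muscle or adipocyte markers) were left out as a last alternative.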

Additional observations from a re-analysis of the deposited data

Results flagged for a closer look

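Only the 8 highest and 8 lowest ratios of each comparison between libraries were scanned for a direction opposite to that in mesenchymal nuclei. Among them, 4 genes pointed opposite, with the intervals of both sets excluding 1. Other genes named above, such as Col12a1 and Matn4 for P5 over E18.5, differed in direction too, so the 4 are not a full count. This difference between the sets was not tested. For E18.5 over E14.5, Grb14, an adaptor of insulin receptor signalling, had a log2 ratio of 4.18 in tenocyte nuclei (168 UMIs at E18.5 and 1 at E14.5) and -1.49 in mesenchymal nuclei, and 1.13 in tenocyte nuclei without the Tnmd requirement. For P5 over E18.5, Cntn5, a neuronal adhesion protein, had 2.71 in tenocyte and -2.22 in mesenchymal nuclei, and 51.2% of its P5 tenocyte UMIs stood in 1 nucleus. For Cacna1s-/- over WT at E18.5, Car10 had -4.34 and 0.78. Ddx60, an interferon-induced helicase, had -4.00 and 0.66 in the same comparison, with 1 UMI in Cacna1s-/- and 64 in WT tenocyte nuclei, and it was at -0.07 without the Tnmd requirement.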

How the results depend on the processing

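The share of tenocyte nuclei depended on the rule. Asking for at least 6 UMIs of the rule genes gave 1.53% at E14.5 and 12.4% at WT E18.5. Without the Tnmd requirement it was 7.30% in Cacna1s-/- and 5.39%, 17.5%, 14.0% and 2.64% along the WT stages. Without nuclei holding RNA of other types it was 2.14% in Cacna1s-/- and 10.5% and 9.08% at WT E18.5 and P5. Thinned to 2000 UMIs it was 1.18% in Cacna1s-/- and 0.778%, 6.81%, 7.43% and 0 along the WT stages. With a minimum of 10 UMIs, 1113 of 12805 genes were at least 2-fold lower at E18.5 than at E14.5, 774 of 13528 at least 2-fold higher at P5 than at E18.5 and 967 of 13128 at least 2-fold higher in Cacna1s-/- than in WT. With a minimum of 50 UMIs, the counts at least 2-fold higher and lower were 1031 and 392 of 8322 for E18.5 over E14.5, 283 and 780 of 9275 for P5 over E18.5 and 358 and 730 of 8697 for Cacna1s-/- over WT. TMM scaling moved the share of higher calls from 28.0% to 45.1% for P5 over E18.5 and from 32.5% to 41.9% for Cacna1s-/- over WT.

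The higher and lower start site calls were 4 and 4 without the library block and 7 and 6 in DESeq2. Leaving out 1 library gave 0 to 30 and 0 to 72, with 30 and 72 without E14.5, 26 and 57 without the adult, 2 and 0 without P5, and 0 and 0 without WT E18.5. The share of nuclei with cell division RNA was 27.1% at E14.5 and 9.70% at P5 where 2 UMIs were asked for, and unthinned it was 40.0% in Cacna1s-/- and 36.1% and 28.8% at WT E18.5 and P5. Of list medians at least 1 in size (log2), 2 turned round, both for macrophage markers without the Tnmd requirement (0.70 for P5 over E18.5 and 0.86 for Cacna1s-/- over WT). Of named genes, Tafa2 turned to -1.55 with at least 1000 ATAC counts a nucleus and Smpd3 to 0.98 without the Tnmd requirement. The cause of these shifts was not tested. Of the remaining values, 1252 gene ratios stayed within their counting interval and 134 did not, and 686 list medians moved by at most 0.5 (log2) and 56 by more.

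No paired analysis was possible because each group was 1 library and the labels give no replicate numbers, so this holds for comparisons between groups, while the start site test pairs both sets within a library. The 61 nuclei at E14.5 and the 2 adult nuclei limit depth most.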

Other observations

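For Cacna1s-/- over WT at E18.5, where 5.64% of all genes were at least 2-fold higher and 11.7% at least 2-fold lower, the median log2 ratio was 0.15 for 17 TGF-beta and BMP genes (1 at least 2-fold higher and 2 lower), 0.23 for 12 Wnt genes (2 higher and 1 lower), -0.27 for 13 mechanosensing genes (3 lower), -0.41 for 14 integrin and junction genes (3 lower) and 0.45 for 10 IGF genes (2 higher and 1 lower). Ccn2, a matricellular protein and YAP target, had 8 and 91 UMIs (ratio 0.351), against 1.15 in mesenchymal nuclei. The 15 limb patterning genes had a median of -0.16, and Eya1 was 1.35-fold in tenocyte (log2 -0.16 without nuclei holding RNA of other types) and 4.45-fold in mesenchymal nuclei.

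Between the WT stages, the imprinted growth genes were higher at E18.5 than at E14.5 for 13 of 14 members (median 0.79, and 0.63 in mesenchymal nuclei), with Meg3 at 5108 and 2255 CPM and H19 at 195 and 96.3 CPM. At P5 Dpp4, a cell surface peptidase of fibroblasts, had 129 CPM, against 32.4 CPM at E18.5 (3.96-fold), and Ltbp2, a latent TGF-beta binding protein of microfibrils, had 6.12 and 43.5 CPM (0.141).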
